A study of Homo sapiens with 12 samples.

Results

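The genes described are the protein-coding genes of human chromosome 19 whose symbol is ZNF followed by a number. There were 249 of them among 58735 annotated genes, and 88 had at least 1 FPKM (fragments scaled by transcript length and library size) in at least 1 library. A further 161 stayed under 1 FPKM in every library: 33 of these had no read in any library, and 35 more had at most 3 reads in each. The name fits the sequences, since 246 of the 249 encode at least 1 C2H2 zinc finger by a pattern search of their annotated protein. Levels just inside the limit were 1.07 FPKM for ZNF780A, 1.04 for ZNF738 and 1.01 for ZNF44 in their highest library, and just outside it 0.975 for ZNF136, 0.966 for ZNF234 and 0.941 for ZNF613.

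A C2H2 zinc finger is a short fold in which a pair of cysteines and a pair of histidines hold a zinc ion, and arrays of such fingers read DNA sequence. Many of the proteins also carry a KRAB domain, which recruits the co-repressor TRIM28 (also called KAP1) and, through it, the histone H3 lysine 9 methyltransferase SETDB1. Such proteins are known for silencing transposable elements. Their genes arose largely by duplication and lie in dense clusters on chromosome 19.

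RNA came from 12 libraries of HepaRG, a human hepatic cell line of wild-type genotype, with 3 libraries in each of 4 groups. Control cells had no treatment, and PA cells were given the saturated fatty acid palmitate, deuterium-labelled and at 400 µM, over 4 h. PA+OA cells received the same dose together with 200 µM oleate, which is monounsaturated. PA+BMS cells were kept for 24 h in 50 µM BMS-309403, which blocks FABP4, a carrier of fatty acids, with the 400 µM palmitate present over 4 h. Labels do not say that replicates came from separate cultures, so p-values measure the spread between these libraries, which may be technical. All 10 hepatocyte markers searched stayed under 1 FPKM in every library, ALB and FABP1 were listed at 0 in each, and their summed level was 0.019 to 0.311 FPKM. KRT7, KRT8 and KRT18, keratins of simple epithelia, stood at means of 506, 252 and 213 FPKM in control. The hepatic label is therefore not borne out by hepatocyte markers in these libraries.

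The whole reads behind the FPKM values summed to 16059128 to 19971190 per library. PA+OA replicate 1 and PA+BMS replicate 3 stood apart, at 54.6 and -51.5 on a first principal component that held 54.4% of the variance over all genes tested. The loadings of genes on that component followed the GC content of their transcripts (Spearman rho 0.68 over 11848 genes, which are not independent). The counts of members called in each comparison are therefore also given without both of these libraries, and after removing, library by library, the dependence on GC content and length as fitted over all genes. At a median over 74 members, the replicate standard deviation as a share of the mean was 15.5% for control, 11% for PA, 26.8% for PA+OA and 19.2% for PA+BMS.

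The members fell into a pair of sequence classes that differed in base composition. A KRAB-like stretch was found by pattern in 210 members, and 39 had none; the pattern is a text match and misses some genes known to have the domain. Of the 88 expressed members, 59 had the stretch, with a median transcript GC content of 44.0% and a median of 12 fingers. The other 29 had a median GC content of 60.9% and 9 fingers. The contrast is visible in a single finger. Below is one finger with its linker, as coding DNA of the last exon, for 3 GC-rich members and 4 GC-poor ones, chosen because they had among the largest falls and rises in PA+BMS; capitals mark the codons of the zinc-holding cysteines and histidines (GENCODE 29, GRCh38).
ZNF358: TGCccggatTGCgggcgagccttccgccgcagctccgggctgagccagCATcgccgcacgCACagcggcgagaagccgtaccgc
ZNF787: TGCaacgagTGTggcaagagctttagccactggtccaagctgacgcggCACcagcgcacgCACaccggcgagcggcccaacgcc
ZNF524: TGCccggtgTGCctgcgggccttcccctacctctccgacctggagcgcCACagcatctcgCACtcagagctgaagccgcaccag
ZNF266: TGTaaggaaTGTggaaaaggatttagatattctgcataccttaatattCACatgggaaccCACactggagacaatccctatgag
ZNF627: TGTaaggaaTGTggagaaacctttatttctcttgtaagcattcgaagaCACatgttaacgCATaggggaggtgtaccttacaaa
ZNF561: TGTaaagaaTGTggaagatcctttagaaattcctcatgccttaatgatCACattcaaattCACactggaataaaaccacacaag
ZNF562: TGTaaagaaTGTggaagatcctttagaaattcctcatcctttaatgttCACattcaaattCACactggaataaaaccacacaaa
These lie at chr19:7519699-7519782 on the plus strand, chr19:56088887-56088970 on the minus strand, chr19:55602458-55602541 on the plus strand, chr19:9414202-9414285 on the minus strand, chr19:11617008-11617091 on the plus strand, chr19:9610731-9610814 on the minus strand and chr19:9653279-9653362 on the minus strand. Their GC content was 73.8%, 66.7% and 67.9% in the first 3, and 39.3%, 39.3%, 34.5% and 32.1% in the others. Over all expressed members with such a stretch, the median was 42.3% in 58 KRAB-pattern members and 59.5% in 25 without the pattern. ZNF561 and ZNF562 are neighbours with nearly the same finger, and 19.97% and 34.9% of the 31-base words of their longest transcripts also occur in another gene, so the division of reads between them is uncertain.

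A short promoter word also recurred across the family. The word CCGGAAG, the core that ETS-family factors are known to bind, was searched on both strands in the stretch from 250 bases before to 50 after each RefSeq start (GRCh38.p14), where 217 members could be matched. It stood in 45.6% of these, in 10.7% of 27305 promoters of all genes and in 15.4% of 14178 promoters of genes tested. Among expressed members it was in 56.6% of 53 with the KRAB-like stretch and in 25.9% of 27 without it. TATAAA, the TATA box word, was in 1.84% of member promoters against 11.95% of all and 7.54% of those of genes tested. The 3 windows below, all upstream of the start, show the word (or its reverse complement) in capitals in the promoters of ZNF787, the member with the highest level, ZNF324, which rose with palmitate, and ZNF274, which rose with oleate.
ZNF787: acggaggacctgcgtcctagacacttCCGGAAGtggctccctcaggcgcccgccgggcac
ZNF324: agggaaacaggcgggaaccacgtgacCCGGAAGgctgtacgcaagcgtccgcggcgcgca
ZNF274: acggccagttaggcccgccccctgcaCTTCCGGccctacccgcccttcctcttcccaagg
They lie at chr19:56121427-56121486 on the minus strand, chr19:58466972-58467031 on the plus strand and chr19:58182952-58183011 on the plus strand. A match is a description of letters and not of binding.

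Most of the family stayed under 1 FPKM in these cells. Of the 249 members, 35.3% reached 1 FPKM, against 22.6% of all annotated genes, 57.7% of 265 protein-coding ZNF genes on other chromosomes and 50.0% of 1223 other protein-coding genes of chromosome 19. These shares are given side by side and their difference was not tested. Words shared with another gene were counted for expressed members alone, so loss of reads to similar genes was not examined in the others. KRAB-pattern members reached 1 FPKM in 28.1% of 210 cases and the others in 74.4% of 39. In all, 38 members stood at 1 FPKM or more in every library, 15 had a mean of at least 5 FPKM and 6 of at least 10.

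The highest member was ZNF787 (ENSG00000142409, chr19:56087366-56121280), with a mean of 26.2 FPKM over 12 libraries. It was followed by ZNF580 at 16.6, ZNF581 at 14.5, ZNF358 at 13.5, ZNF524 at 12.8, ZNF428 at 11.8, ZNF414 at 9.8, ZNF317 at 8.6, ZNF579 at 7.79 and ZNF865 at 7.3. ZNF317 is the only KRAB-pattern gene among these 10, and it was also one of the most even, at means of 7.91, 8.63, 9.07 and 8.8 FPKM in control, PA, PA+OA and PA+BMS. ZNF580 and ZNF581 overlap each other, and the deposited values do not show how reads in the overlap were divided.

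Expression was uneven along the chromosome. When a gap of over 1 Mb between members starts a new cluster, the 249 genes form 16 clusters. The cluster nearest the end of the long arm (chr19:55476332-58481230) held 59 members, of which 36 (61.0%) were expressed. The one at chr19:7069444-9793180 on the short arm had 11 of 16 expressed (68.8%). By contrast, 3 of 37 (8.11%) reached 1 FPKM in the cluster that flanks the centromere (chr19:19668796-24129961), 3 of 26 (11.5%) at chr19:36182060-37817300, and 10 of 40 at chr19:51571298-53580269.

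**Figure D1:**
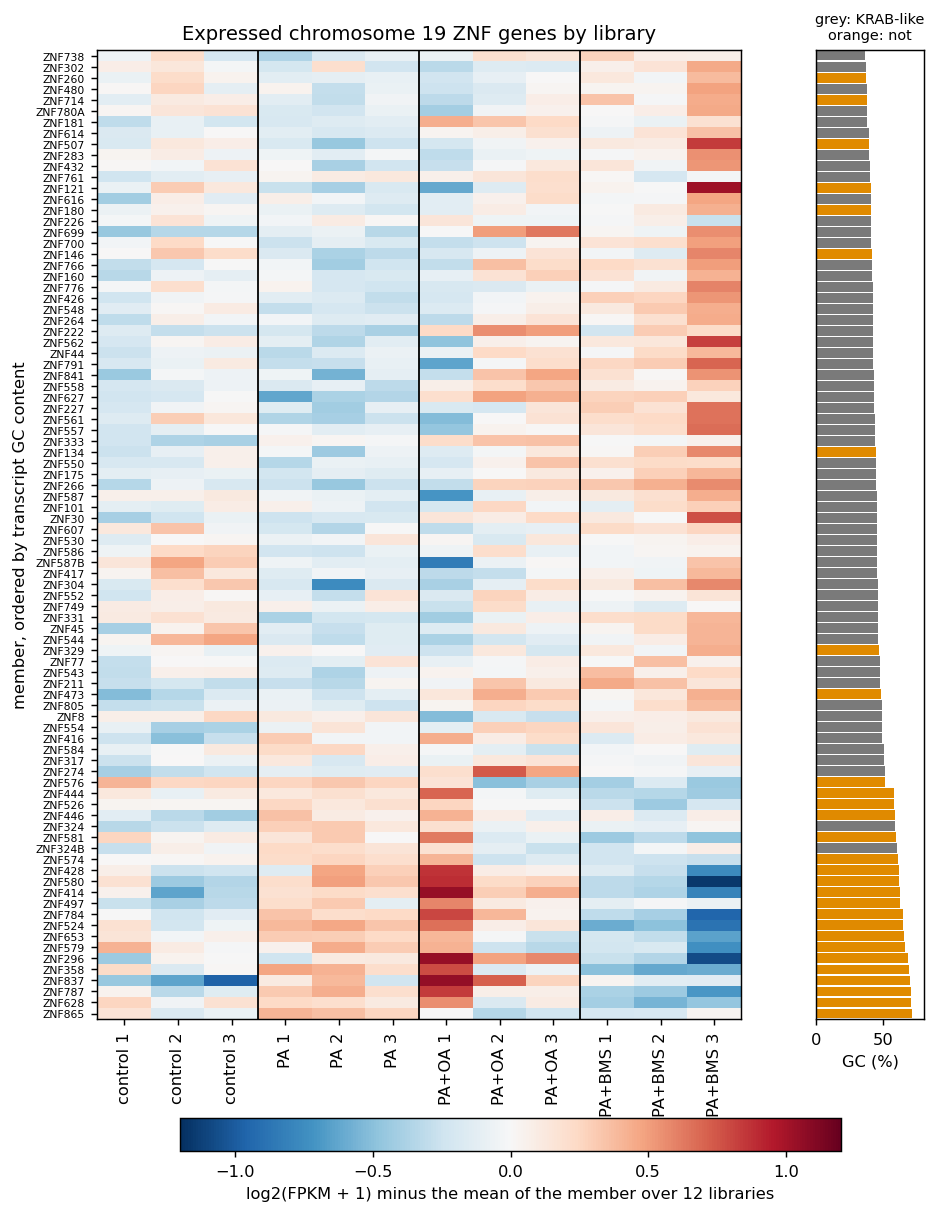
Heat map of the 88 expressed members (rows, ordered by transcript GC content from low at the top to high at the bottom) in the 12 libraries (columns). Colour is log2(FPKM + 1) minus the member's mean over 12 libraries; the bars at the right give GC content in percent, grey for members with a KRAB-like stretch and orange for the others. PA+BMS replicate 3 was the highest of its group in 60 of 88 members, mostly in the upper rows, and PA+OA replicate 1 was the lowest of its group in 57 and the highest in 26, the latter mostly at the bottom.

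Members did not share one order of groups. Of the 88 expressed, 44 had their highest group mean in PA+BMS, 24 in PA+OA, 11 in PA and 9 in control, and 36 had their lowest in PA. The limit of 1 FPKM in any library favours a group with a high library: 6 of the 88 reached it in PA+BMS replicate 3 alone. Without the pair of libraries that stand apart 82 reach the limit, but all 88 are kept in the counts below. For KRAB-pattern members, 37 of 59 were highest in PA+BMS and 29 were lowest in PA. Among the other 29, 7 were highest in PA+BMS and 16 were lowest there. Without the pair of libraries that stand apart, 27 of the 88 were highest in PA+BMS, 26 in PA+OA, 20 in PA and 15 in control, and 41 were lowest in PA. Of the 59 KRAB-pattern members 22 were then highest in PA+BMS and 22 in PA+OA, and 34 were lowest in PA. Of the other 29, 16 were highest in PA (8 with all libraries) and 4 in PA+OA (12 with all libraries), and 14 were lowest in PA+BMS. In bulk RNA, fewer cells of a type and less RNA per cell cannot be told apart.

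Changes between groups were tested in the 74 members that had at least 1 FPKM in at least 3 libraries. They are log2 differences of FPKM + 1, a scale that understates the change of low genes, and a member is said to have risen or fallen when the limma p adjusted over all 11856 genes tested was at most 0.05. Of the 14 expressed members left out, 6 reached 1 FPKM in PA+BMS replicate 3 alone. A member that is high in 1 group could pass the limit through that group, which held for 1 of the 74. All comparisons with PA share its 3 libraries, and likewise those with control.

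Palmitate alone gave few calls among these genes. Against control, 6 members rose and 2 fell, where 12.8% of all genes tested rose and 14.8% fell; the median change was 0.0013 in the 74 members and 0.028 over all genes. The rises were ZNF837, ZNF324, ZNF446, ZNF416, ZNF865 and ZNF333, and the falls ZNF544 and ZNF331. Of the 6 genes that rose, 5 lie in the cluster nearest the chromosome end, which holds 34 of the 74 tested members; whether the share differs was not tested.

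ZNF837 (ENSG00000152475, chr19:58367618-58381060) had the largest change. It stood at 0.594, 0.409 and 0.116 FPKM in the controls and at 1.35, 1.86 and 0.846 in PA (log2 change 0.77, standard error 0.21, limma adjusted p = 0.0233). The groups did not overlap, and the lowest control rests on 4 reads. ZNF324 (ENSG00000083812, chr19:58467045-58475436), a KRAB-pattern gene, was at 2.57, 2.76 and 3.03 FPKM in control and 4.49, 4.61 and 3.92 in PA (log2 change 0.50, standard error 0.10, limma adjusted p = 0.00849). It overlaps ZNF446, which went from 0.845, 0.609 and 0.512 to 1.57, 1.15 and 1.09 FPKM (log2 change 0.46, standard error 0.16, limma adjusted p = 0.0488), and 37.7% and 61.3% of their words are shared with other genes, so these values may not be independent.

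ZNF333 (ENSG00000160961, chr19:14689801-14733746) was higher in each PA library, at 0.974, 0.935 and 0.883 FPKM, than in any control, at 0.619, 0.472 and 0.45 (log2 change 0.35, standard error 0.10, limma adjusted p = 0.0298). It was the member with a rise in PA both before and after the GC trend was removed (adjusted p = 0.00861 by limma after removal). ZNF416 rose from 2.3 ± 0.308 to 3.42 ± 0.619 FPKM and ZNF865 from 7.05 ± 0.985 to 9.39 ± 0.542 (mean ± SD, n = 3), without overlap between the groups. Downwards, ZNF544 (ENSG00000198131, chr19:58228594-58277495) was at 3.29, 4.51 and 4.82 FPKM in control and 2.7, 2.38 and 2.78 in PA (log2 change -0.51, standard error 0.15, limma adjusted p = 0.0253), and ZNF331, an imprinted KRAB gene, at 2.16, 2.33 and 2.18 and 1.25, 1.53 and 1.54 (log2 change -0.40, standard error 0.13, limma adjusted p = 0.0401). In both falls every PA library was below every control.

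Of these 8 calls, ZNF324 alone passed in each fit that left out 1 library (largest adjusted p = 0.0458, limma). The others were lost without single PA or control libraries, for example ZNF837 without PA replicate 2 (adjusted p = 0.099), ZNF333 without control replicate 2 (0.106) and ZNF544 without control replicate 2 (0.103). Leaving out 1 library gave between 1 and 11 rises and between 0 and 7 falls, with 11 and 7 without PA+OA replicate 1, and 1 and 0 without PA replicates 1 or 2 or control replicates 2 or 3. Without the pair of libraries that stand apart, 14 members rose and 9 fell, the 8 above among them, against 29.9% and 26.8% of all genes. With the GC and length trend removed, 4 rose (ZNF333, ZNF181, ZNF264 and ZNF761) and 2 fell (ZNF544 and ZNF581), against 6.85% and 9.60% of all genes. That trend was fitted over all genes. After its removal, the Pearson r between GC content and log2 change was -0.31 over the 74 members and 0 over all genes. Calls made after removal are therefore not free of GC content. With library totals set equal, 1 rose and 5 fell; this scaling shifted the median of all genes by -0.21.

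GC content ran along with the palmitate change. Across the 74 members, the Pearson r between transcript GC content and log2 change was 0.68, and across 11848 genes 0.61; genes share libraries and are not independent. The 20 tested members over 55% GC had a median change of 0.34 and 4 rises (20%). Over 3694 genes of that range the median was 0.37 and 26.8% rose. Of 4095 genes of up to 45% GC, 0.928% rose and 34.4% fell, with a median of -0.34. In the 30 members of that range the median was -0.14, 1 rose and none fell. Beside that 0, 3 members were lower at an unadjusted p of at most 0.05 by limma, and voom on recovered reads also called 0. These ranges were chosen after the data were seen, and the part of GC content in the result was not tested.

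Oleate on top of palmitate raised 4 members and lowered 2, against 4.01% and 3.91% of all genes tested, with a median change of 0.080 in members and -0.0024 over all genes. ZNF627, ZNF222, ZNF274 and ZNF181, all KRAB-pattern genes, rose, and ZNF865 and ZNF8 fell. ZNF627 (ENSG00000198551, chr19:11559374-11619135) stood at 0.469, 0.741 and 0.765 FPKM in PA and 1.6, 2.15 and 2.03 in PA+OA (log2 change 0.82, standard error 0.13, limma adjusted p = 0.00228). That is 2.93 times the PA mean, and every PA+OA library was above every PA and control library.

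ZNF222 (ENSG00000159885, chr19:44025342-44033112) went from 0.627, 0.512 and 0.439 to 1.22, 1.76 and 1.66 FPKM (log2 change 0.73, standard error 0.15, limma adjusted p = 0.0113), again without overlap. ZNF274 (ENSG00000171606, chr19:58183029-58213562), which carries both a SCAN and a KRAB domain and is known for binding the 3′ ends of zinc finger genes, was at 4.63, 4.52 and 4.55 in PA and 6.02, 9.12 and 7.47 in PA+OA (log2 change 0.60, standard error 0.12, limma adjusted p = 0.0103). Its 3 PA values differed little, and the mean of the more widely spread PA+OA libraries was 1.65 times theirs. ZNF181 (ENSG00000197841, chr19:34734155-34745378) rose from 0.69 ± 0.0399 to 1.39 ± 0.165 FPKM (SD, n = 3; log2 change 0.50, standard error 0.12, limma adjusted p = 0.023).

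ZNF865 (ENSG00000261221, chr19:55605405-55617269), a GC-rich member with 20 fingers that had risen with palmitate, was at 9.88, 9.49 and 8.8 FPKM in PA and 7.23, 5.47 and 5.93 in PA+OA (log2 change -0.53, standard error 0.13, limma adjusted p = 0.0226). Its PA+OA libraries all lay below the lowest PA library and within or just under the range of control, 8.15, 6.24 and 6.76. ZNF8 (ENSG00000278129, chr19:58278951-58302805) fell from 1.09, 1.0 and 1.12 to 0.34, 0.685 and 0.584 FPKM (log2 change -0.44, standard error 0.12, limma adjusted p = 0.0411), the lowest value being in PA+OA replicate 1. Of its transcript words, 30.7% occur in another gene.

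ZNF627 and ZNF274 passed in every fit that left out 1 library, with a largest adjusted p of 0.0147 and 0.0438 by limma. ZNF222 was lost without PA+OA replicate 2 (adjusted p = 0.0549), ZNF181 without any 1 PA library or PA+OA replicate 2 (up to 0.0878), ZNF865 without PA replicates 1 or 2 or PA+OA replicates 2 or 3 (up to 0.0964) and ZNF8 without any of 11 libraries (up to 0.127). Leaving out PA+OA replicate 1 gave 8 rises and 5 falls, and PA+OA replicate 2 gave 2 and 0. Without the pair that stands apart, 14 rose and 8 fell, the 6 above among them, against 11.2% and 14.2% of all genes. With the trend removed, 7 rose and 4 fell, against 6.67% and 6.69%, and 3 of the 4 rises (ZNF222, ZNF274 and ZNF627) and both falls were kept; ZNF181 was lost (adjusted p = 0.0559).

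**Figure D2:**
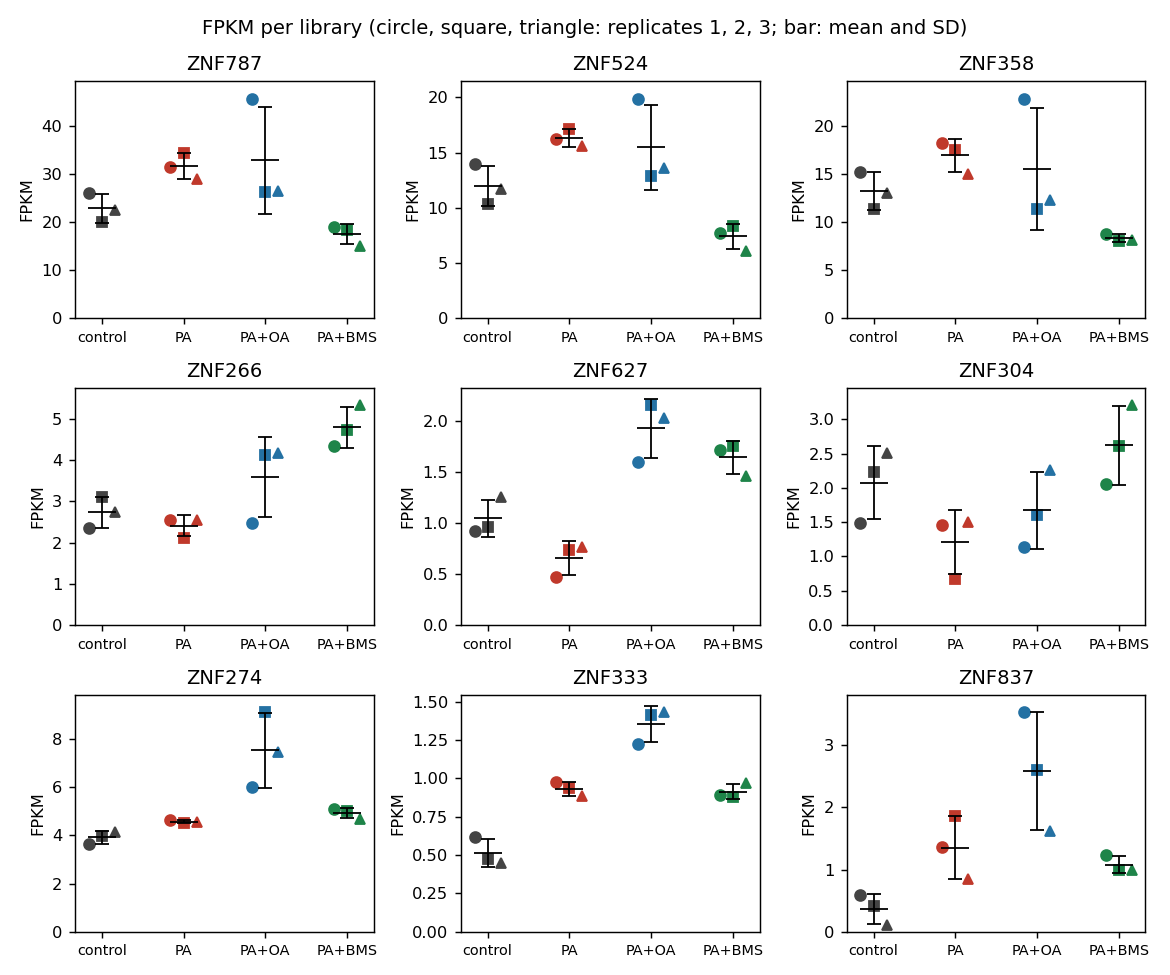
FPKM of 9 members in each library (vertical axes start at 0 and differ between panels). Circles, squares and triangles are replicates 1, 2 and 3 of each group, and bars give the mean and SD of 3 libraries. ZNF787, ZNF524 and ZNF358 were lowest in PA+BMS, ZNF266, ZNF627 and ZNF304 were higher in PA+BMS than in PA, and ZNF274, ZNF333 and ZNF837 had their highest mean in PA+OA.

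Against control, cells with both fatty acids had 17 members higher and 4 lower by the same test, where 17.5% of all genes rose and 18.8% fell. The median change was 0.047 in members and 0.011 over all genes. The 8 largest rises were ZNF837, ZNF414, ZNF296, ZNF274, ZNF699, ZNF222, ZNF333 and ZNF473, and the falls were ZNF587B, ZNF544, ZNF576 and ZNF8.

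ZNF837 again had the largest change, with 3.53, 2.6 and 1.63 FPKM in PA+OA and 0.594, 0.409 and 0.116 in control (log2 change 1.37, standard error 0.21, limma adjusted p = 0.000651), and its ratio of highest to lowest group mean, 6.94, was the largest of the expressed members. ZNF699 (ENSG00000196110, chr19:9294275-9309838), a KRAB-pattern gene, stood at 0.199, 0.297 and 0.298 FPKM in control and 0.637, 1.32 and 1.54 in PA+OA (log2 change 0.75, standard error 0.19, limma adjusted p = 0.0111). It was in between in PA, at 0.512, 0.566 and 0.307. ZNF333 was at 1.22, 1.42 and 1.43 in PA+OA (log2 change 0.64, standard error 0.10, limma adjusted p = 0.000909), above every PA library as well as every control.

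ZNF274 reached a mean 1.92 times that of control (log2 change 0.78, standard error 0.12, limma adjusted p = 0.000684). ZNF473 (ENSG00000142528, chr19:50025714-50053414), known as a part of the U7 machinery that processes histone messenger RNA, was at 2.65, 3.12 and 3.67 FPKM in control and 4.74, 6.08 and 5.49 in PA+OA (log2 change 0.64, standard error 0.13, limma adjusted p = 0.00403). It overlaps VRK3, which is also expressed. ZNF414 and ZNF296, both GC-rich, rose from 7.4 ± 2.0 to 14.8 ± 4.54 and from 3.47 ± 0.762 to 7.01 ± 1.77 FPKM (SD, n = 3), and in both PA+OA replicate 1 was the highest library, at 19.9 and 9.04 FPKM.

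Among the falls, ZNF576 (ENSG00000124444, chr19:43596392-43601157) was at 4.28, 3.74 and 3.76 FPKM in control and 3.47, 1.81 and 2.05 in PA+OA (log2 change -0.55, standard error 0.16, limma adjusted p = 0.0187), with PA+OA replicate 1 just below the controls. ZNF587B, which overlaps ZNF586 and has 27.3% of its words in other genes, was at 3.3, 4.39 and 3.81 and 1.17, 2.7 and 2.94 (log2 change -0.60, standard error 0.20, limma adjusted p = 0.0337), here with PA+OA replicate 1 the lowest. ZNF544 and ZNF8 had log2 changes of -0.55 and -0.46, with adjusted p = 0.013 and 0.0112 by limma.

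Of the genes named here, ZNF837, ZNF274, ZNF333, ZNF473, ZNF414, ZNF699 and ZNF222 passed in each fit that left out 1 library. ZNF296 was lost without PA+OA replicate 1 (adjusted p = 0.054), ZNF587B without that library or control replicates 2 or 3 (up to 0.121), ZNF576 without PA+OA replicates 2 or 3 or control replicate 1 (up to 0.0675), ZNF544 without control replicates 2 or 3 (up to 0.0609) and ZNF8 without control replicate 3 (0.0526). Without control replicate 2 there were 11 rises and 2 falls, and without control replicate 3 there were 11 and 1. Without the pair that stands apart, 21 rose and 6 fell, against 18.3% and 21.2% of all genes. With the trend removed, 20 rose and 11 fell, against 17.7% and 20.6%, and with library totals set equal 9 rose and 6 fell. ZNF296 was not called with the trend removed (adjusted p = 0.0986).

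The comparison of PA+BMS with PA, which asks what the FABP4 inhibitor changed in palmitate-treated cells, had the most calls of the 5 comparisons in the values as deposited, though not with the GC and length trend removed, where it had 5 rises and 7 falls beside 20 and 11 in PA+OA against control. By limma, 23 rose and 17 fell, where 25.2% of all genes rose and 29.4% fell, and the median change was 0.20 in members and -0.044 over all genes. The sequence classes went opposite ways: 19 of 47 tested KRAB-pattern members rose and 1 fell, while 4 of 27 others rose and 16 fell. Medians of the changes were 0.35 and -0.51. After removal of the GC and length trend, 5 and 3 KRAB-pattern members and 0 and 4 others rose and fell, and without the pair of libraries that stand apart 17 and 1, and 1 and 15. On the rest of chromosome 19, 8 of 591 tested protein-coding genes rose and 431 fell, and of 139 tested ZNF genes on other chromosomes 40 rose and 29 fell. After the same removal these were 36 and 94 of the 591, and 17 and 3 of the 139, and without the pair of libraries 11 and 444, and 38 and 31.

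The 8 largest named rises were ZNF266, ZNF304, ZNF561, ZNF627, ZNF507, ZNF791, ZNF227 and ZNF562. ZNF266 (ENSG00000174652, chr19:9412461-9435578), a KRAB-pattern gene with 12 fingers, stood at 2.56, 2.12 and 2.56 FPKM in PA and 4.35, 4.72 and 5.32 in PA+BMS (log2 change 0.76, standard error 0.15, limma adjusted p = 0.00493). Each PA+BMS library was also above each control, 2.36, 3.1 and 2.74. ZNF627, the gene with the largest oleate rise, was at 1.71, 1.76 and 1.46 FPKM in PA+BMS (log2 change 0.68, standard error 0.13, limma adjusted p = 0.00389), without overlap with PA.

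ZNF304 (ENSG00000131845, chr19:57351307-57359898), known as a KRAB repressor, went from 1.45, 0.667 and 1.5 to 2.05, 2.61 and 3.2 FPKM (log2 change 0.73, standard error 0.21, limma adjusted p = 0.0146), PA replicate 2 being the lowest library. The neighbours ZNF561 and ZNF562, whose fingers are printed above, were at 1.42, 1.37 and 1.6 and 1.74, 1.31 and 1.72 FPKM in PA. In PA+BMS they were at 2.61, 2.69 and 3.9 and 2.25, 2.27 and 4.25, so that replicate 3 was the highest in both (log2 change 0.71, standard error 0.19, limma adjusted p = 0.0109 for ZNF561, and for ZNF562 log2 change 0.56, standard error 0.20, limma adjusted p = 0.0326). For ZNF507, a GC-poor member without the KRAB-like stretch, the values were 0.804, 0.488 and 0.719 and 1.22, 1.19 and 2.66 (log2 change 0.65, standard error 0.19, limma adjusted p = 0.0155), again with replicate 3 far above the other PA+BMS libraries.

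The largest falls were in GC-rich members. ZNF524 (ENSG00000171443, chr19:55600022-55603138) stood at 16.2, 17.2 and 15.6 FPKM in PA and 7.74, 8.35 and 6.11 in PA+BMS (log2 change -1.05, standard error 0.17, limma adjusted p = 0.00251), and ZNF787 at 31.5, 34.4 and 29 and 19, 18.2 and 15.1 (log2 change -0.83, standard error 0.19, limma adjusted p = 0.00764). ZNF358 (ENSG00000198816, chr19:7515292-7521026) went from 18.3, 17.5 and 15.1 to 8.82, 8.07 and 8.18 (log2 change -0.94, standard error 0.21, limma adjusted p = 0.00656), with nearly equal values in the 3 PA+BMS libraries. In all 3 genes the groups were well apart, and PA+BMS was below control as well, with means of 12, 22.8 and 13.2 FPKM in control. Against control, ZNF524 alone of the 3 was called as deposited, and ZNF358 too without the pair of libraries that stand apart.

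ZNF580, ZNF784, ZNF414, ZNF653 and ZNF628 completed the 8 named falls, with log2 changes of -0.95, -0.81, -0.70, -0.66 and -0.66. Also lower were ZNF581 (-0.56), ZNF579 (-0.65), ZNF428 (-0.60) and ZNF865 (-0.46), all of the 10 highest members. ZNF317, the remaining one of those 10 and the one with a KRAB-like stretch, was at 8.63 ± 1.09 FPKM in PA and 8.8 ± 0.708 in PA+BMS (SD, n = 3).

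**Figure D3:**
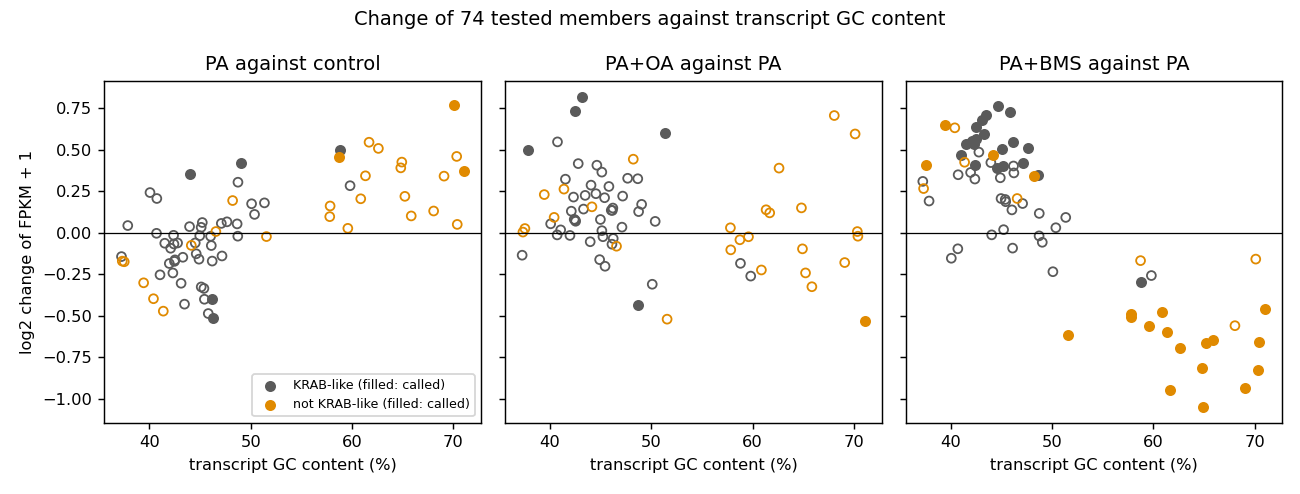
Log2 change of FPKM + 1 (vertical axis) against transcript GC content in percent (horizontal axis) for the 74 tested members in 3 comparisons. Grey points have a KRAB-like stretch and orange points do not; filled points were called by limma. In PA+BMS against PA the points run from positive at low GC content to negative at high GC content (Pearson r -0.85), and in PA against control the other way (0.68).

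The change with the inhibitor followed GC content closely, with a Pearson r of -0.85 over the 74 members and -0.70 over 11848 genes. In members over 55% GC, 16 of 20 fell and none rose, against 64.1% and 0.379% of 3694 genes of that range; limma at an unadjusted p of at most 0.05 and voom on recovered reads also gave 0 rises. Up to 45% GC, 15 of 30 members rose and none fell, against 58.7% and 3.0% of 4095 genes, with 0 falls by both of these other counts as well. In the middle range 8 of 24 rose and 1 fell, against 13.8% and 24.3% of 4059 genes. Class and GC content overlapped but were not the same. Of the 20 tested members over 55% GC, 18 lacked the KRAB-like stretch and 15 of these fell. Of the 6 without the stretch at up to 45% GC, 3 rose and none fell, beside 12 rises and no fall in 24 with it. Between 45% and 55% GC, 1 of 3 without it rose and 1 fell, beside 7 rises and no fall in 21 with it. The rise without it was ZNF473 (48.2% GC), which is known to have a KRAB domain that the pattern misses.

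With the GC and length trend removed, 5 members rose (ZNF211, ZNF266, ZNF304, ZNF627 and ZNF805) and 7 fell (ZNF358, ZNF524, ZNF576, ZNF787, ZNF226, ZNF333 and ZNF761), against 11.2% and 12% of all genes. Without the pair of libraries that stand apart, 18 rose and 16 fell, against 25% and 30.1%. Leaving out PA+BMS replicate 3 alone gave 8 rises and 12 falls, and PA replicate 2 alone 9 and 10. With library totals set equal there were 37 rises and 8 falls, where the median of all genes moved by 0.28, and with quantile normalization 14 and 19.

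Among the named genes, ZNF266, ZNF561, ZNF627, ZNF227, ZNF524, ZNF580, ZNF358, ZNF787, ZNF784, ZNF653 and ZNF628 passed in every fit that left out 1 library. ZNF304, ZNF507, ZNF562 and ZNF791 were lost without PA+BMS replicate 3 (adjusted p = 0.0575, 0.0506, 0.136 and 0.0795, limma) and without PA replicate 2 (0.0641, 0.0611, 0.108 and 0.0618). The log2 change itself shrank without PA+BMS replicate 3 to 0.33 for ZNF562 and 0.40 for ZNF507. ZNF414 was lost without the same libraries, at 0.0733 and 0.0534. ZNF428, whose groups overlapped, ZNF579 and ZNF581 were also lost without PA+BMS replicate 3 (0.193, 0.104 and 0.0663).

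Compared with untreated cells, 4 members (5.41%) rose and 3 (4.05%) fell in PA+BMS, near the 4.77% and 6.25% of all genes. At an unadjusted p of at most 0.05 by limma, 21 were higher and 9 lower. The share of all genes at that threshold is not given here, so these counts cannot be set beside the shares above. The median change was 0.19 in members and -0.018 over all genes. ZNF266 (log2 change 0.64, standard error 0.15, limma adjusted p = 0.0216), ZNF211, ZNF473 and ZNF426 rose, and ZNF576, ZNF524 and ZNF628 fell. ZNF211 (ENSG00000121417, chr19:57630395-57642779) stood at 0.825, 0.908 and 0.80 FPKM in control and 2.02, 1.81 and 1.44 in PA+BMS (log2 change 0.57, standard error 0.14, limma adjusted p = 0.0226), and ZNF426 at 1.21, 1.52 and 1.57 and 2.17, 2.11 and 2.76 (log2 change 0.46, standard error 0.12, limma adjusted p = 0.031).

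ZNF473 was at 5.03 ± 0.881 FPKM in PA+BMS against 3.15 ± 0.511 in control (SD, n = 3; log2 change 0.54, standard error 0.13, limma adjusted p = 0.0244). ZNF576 was at 2.01, 2.56 and 1.93 in PA+BMS, under every control (log2 change -0.64, standard error 0.16, limma adjusted p = 0.0217), and ZNF628, a GC-rich member with 16 fingers, at 6.98, 5.46 and 6.55 in control and 4.02, 3.52 and 3.83 in PA+BMS (log2 change -0.61, standard error 0.16, limma adjusted p = 0.0291). For ZNF524 the log2 change was -0.63 (adjusted p = 0.0312, limma). Each of the 7 calls was lost in at least 1 fit without a control or PA+BMS library: without control replicate 1, ZNF266 had an adjusted p of 0.0832, ZNF211 of 0.0674, ZNF473 of 0.0978, ZNF426 of 0.118, ZNF576 of 0.0784, ZNF524 of 0.121 and ZNF628 of 0.105. Counts without 1 library ran from 0 and 0 without control replicate 1 to 12 and 11 without PA+OA replicate 1. Without the pair that stands apart 6 rose and 9 fell, against 7.63% and 10.6% of all genes, and with the trend removed 8 rose and 4 fell, against 9.66% and 9.58%.

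**Figure D4:**
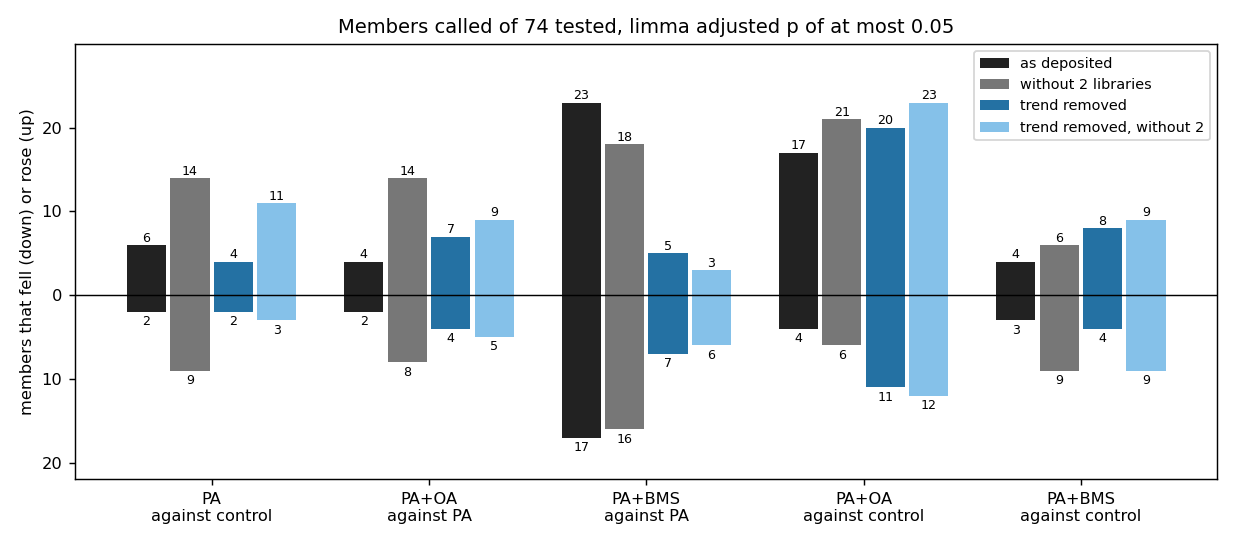
Number of the 74 tested members that rose (upward bars) or fell (downward bars) in 5 comparisons, under 4 settings of the limma test: values as deposited, the pair of libraries that stand apart left out, the GC and length trend removed, and both of these. In PA+BMS against PA the counts go from 23 and 17 as deposited to 5 and 7 with the trend removed, and in PA+OA against control from 17 and 4 to 20 and 11.

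Genes for the proteins through which KRAB zinc fingers act were all tested, and 23 of 27 on a list of KRAB co-repressors and heterochromatin factors stood at 1 FPKM or more in every library. The other 4, ATF7IP, ATRX, MORC3 and SMARCAD1, were under 1 FPKM in at least 1 library and had means of 0.832, 0.872, 0.926 and 0.97 FPKM in PA. The summed level of the list, of which TRIM28 is a large share, was 585 to 634 FPKM in control, 648 to 720 in PA, 546 to 709 in PA+OA and 540 to 561 in PA+BMS. TRIM28, itself a chromosome 19 gene of 63.7% GC, was at 206, 178 and 209 FPKM in control and 314, 306 and 272 in PA (log2 change 0.59, standard error 0.18, limma adjusted p = 0.0356). It was at 192, 182 and 176 in PA+BMS (log2 change -0.69, standard error 0.18, limma adjusted p = 0.0112 against PA), so that its 3 PA libraries stood above all controls and all PA+BMS libraries.

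As deposited, TRIM28 differed less in the other comparisons, with log2 changes of -0.15 for PA+OA against PA (adjusted p = 0.741, limma), 0.44 for PA+OA against control (0.0778, and 0.0421 with the replicate number as a block) and -0.10 for PA+BMS against control (0.753). Its PA+OA libraries were at 377, 222 and 229 FPKM, replicate 1 being the highest. Without the pair of libraries that stand apart, it fell in PA+OA against PA (log2 change -0.39, adjusted p = 0.0192, limma). Its change in PA+OA against control was then 0.19 (adjusted p = 0.155, limma). With the trend removed, neither its palmitate rise nor its fall with the inhibitor was kept as a call (adjusted p = 0.101 and 0.226). Its palmitate rise was also lost without any 1 control or PA library (adjusted p from 0.0515 without control replicate 1 to 0.135 without control replicate 2, limma), while its fall with the inhibitor passed without each library in turn. SETDB1 had group means of 6.54, 6.95, 6.87 and 6.78 FPKM, and its log2 changes in the 5 comparisons lay between -0.03 and 0.074, none called.

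With palmitate, 1 of the 27 rose and 9 fell, where 12.8% and 14.8% of all genes did, with a list median of -0.34. The falls included CBX1, CBX3 and SUV39H2, a pair of HP1 proteins and a methyltransferase of heterochromatin, at log2 changes of -0.54, -0.75 and -0.84. With the inhibitor added, 11 rose and 5 fell, against 25.2% and 29.4% of all genes (median 0.18), CBX1, CBX3 and SUV39H2 among the rises at 0.45, 0.35 and 0.47. PA+OA against control had 14 falls and no rise, against 18.8% and 17.5% of all genes (median -0.41), among them UHRF1, which brings DNA methyltransferase to newly copied DNA, at 38.1, 38.1 and 33.6 FPKM in control and 13.6, 20.9 and 18.4 in PA+OA (log2 change -1.03, standard error 0.15, limma adjusted p = 0.000464); 1 gene was higher at an unadjusted p of at most 0.05, and voom gave 0 rises.

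UHRF1 was also the 1 gene of the list that fell in PA+OA against PA (log2 change -0.69, standard error 0.15, limma adjusted p = 0.016), where 0 rose by limma, by voom, and at an unadjusted p of at most 0.05. PA+BMS against control gave 0 calls by limma in both directions; at an unadjusted p of at most 0.05, 1 was higher and 5 lower, and voom called 1 fall. With the trend removed, the list had 0 rises and 4 falls with palmitate, 0 and 4 with oleate added, 1 and 0 with the inhibitor added, 1 and 11 in PA+OA against control, and 0 and 3 in PA+BMS against control. Without the pair of libraries that stand apart it had 5 rises and 14 falls with palmitate, 0 and 6 with oleate added, 8 and 7 with the inhibitor added, and 0 and 5 in PA+BMS against control. The GC content of the list ran from 36.0% to 63.7%, and its part in these changes was not tested.

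Chromosome 19 also holds C2H2 genes with other names. Of 24 listed, 7 were tested: HKR1, ZSCAN22, ZBTB7A, ZBTB45, KLF2, KLF16 and MZF1. KLF2, a Krüppel-like factor known for its response to blood flow in endothelium, was at 1.15, 0.785 and 0.595 FPKM in control, 6.35, 9.23 and 8.53 in PA and 19.4, 13.5 and 17.9 in PA+OA, with no overlap between these groups (log2 change 2.29, standard error 0.17, limma adjusted p = 2.17e-05 with palmitate, and log2 change 0.98, standard error 0.17, limma adjusted p = 0.00397 with oleate added). ZBTB7A, a repressor known for silencing fetal globin genes, was at 8.94, 8.6 and 7.96 in PA and 3.42, 3.63 and 4.2 in PA+OA (log2 change -1.0, standard error 0.11, limma adjusted p = 0.00027). Both changes went beyond those of any ZNF member in the same comparison, and both were kept with the trend removed (adjusted p = 0.00145 for KLF2 and 0.00224 for ZBTB7A in PA+OA against PA).

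HKR1, a KRAB zinc finger gene, rose with palmitate from 1.23, 1.1 and 1.21 to 1.72, 1.8 and 1.65 FPKM (log2 change 0.32, standard error 0.092, limma adjusted p = 0.0268), a call that was lost with the trend removed (log2 change 0.25, adjusted p = 0.0534, limma). Over these 7 genes, 2 rose and none fell with palmitate (12.8% and 14.8% of all genes), 1 rose and 1 fell with oleate added (4.01% and 3.91%), and none rose and 4 fell with the inhibitor added (25.2% and 29.4%). Against control, 2 rose and 1 fell in PA+OA (17.5% and 18.8%) and 2 rose and 3 fell in PA+BMS (4.77% and 6.25%). For each 0 among these counts, limma at an unadjusted p of at most 0.05 and voom also gave 0. After trend removal the counts were 1 and 1, 1 and 1, 0 and 1 (KLF16), 2 and 2, and 2 and 2 in the same order, and without the pair of libraries that stand apart 4 and 0, 1 and 2, 0 and 4, 2 and 1, and 2 and 3.

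Epithelial and other cell markers moved in some of the same comparisons. KRT7, KRT8 and KRT18 fell in PA+BMS against PA, to means of 167, 130.3 and 101 FPKM from 614, 303 and 259.7. In that comparison 29.4% of all genes fell. KRT19, EPCAM and SOX9 stayed under 1 FPKM, and SOX9 had means of 0.534 in PA and 0.592 in PA+BMS. The 6 epithelial markers summed to 372 to 427 FPKM in PA+BMS, 1029 to 1286 in PA, 872 to 1051 in control and 955 to 1739 in PA+OA. The 4 stellate or fibroblast markers summed to 8.60 to 9.54 FPKM in control, 7.53 to 8.18 in PA, 5.36 to 7.66 in PA+OA and 4.38 to 5.98 in PA+BMS, and PDGFRB fell from 3.3 in PA to 1.5 in PA+BMS. The 4 leukocyte markers summed to 1.63 to 2.36, 1.82 to 2.38, 2.26 to 2.496 and 0.770 to 1.0 in the same order, and CSF1R fell from 1.85 to 0.551 with the inhibitor. CD14 and CD68, under 1 FPKM in every library, were not lower with it. Their means were 0.231 and 0.00918 FPKM in PA and 0.289 and 0.0148 in PA+BMS. The 4 endothelial markers summed to 1.36 to 1.82, 1.06 to 1.35, 0.287 to 0.454 and 0.343 to 0.459, and CDH5 fell from 1.12 in PA to 0.301 in PA+OA and 0.342 in PA+BMS. PTPRC and KDR were near 0 throughout. The part of these shifts in the zinc finger results was not tested.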

How the data were processed

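RNA of 12 HepaRG libraries was poly(A)-selected and sequenced as pairs of 150 bp reads, per the labels' protocols. CASAVA, HISAT2 2.0.5 and featureCounts 1.5.0-p3 are named in the submitters' processing notes, without roles. What genome build, annotation or strandedness they ran with is not given in the sources used here. FPKM values for 58735 genes, with each gene's length, were deposited by the authors. All gene identifiers and symbols equal those of GENCODE 29 (GRCh38), from which positions, GC content and overlaps were taken. Low values were whole multiples of 1 read, and whole reads were recovered for 100% of values (within 0.001), 16059128 to 19971190 per library; these were used for voom and to state depth. Libraries of a group differed by more than counting noise, so none was a repeat deposit.

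The test was limma 3.58.1 in R 4.3.3 on log2(FPKM + 1), with 1 coefficient per group, 8 residual degrees of freedom and a spread shared by all 4 groups, over 11856 genes with at least 1 FPKM in at least 3 libraries. P-values were adjusted by Benjamini-Hochberg over all of them and called at 0.05. The procedure was tested on simulated data without GC-linked shifts or libraries that stand apart, which leaves its error rate in these libraries untested. Trends of each library against GC content and length were removed with natural splines of 5 degrees of freedom over 11848 genes. Over the 74 members, the Pearson r of log2 change with GC content was then -0.31, -0.18, -0.14, -0.31 and -0.36. The order is PA against control, PA+OA against PA, PA+BMS against PA, PA+OA against control and PA+BMS against control. The KRAB-like stretch and fingers are pattern matches on translated GENCODE coding sequence (a finger has 2 residues between the cysteines, 12 up to the first histidine and 3 to 5 between the histidines). Shared words are the 31-base words of a transcript that occur in another gene. Tables and figures were made with Python 3.11.15, pandas 2.3.3 and matplotlib 3.10.9.

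Named members are the 10 with the highest mean, up to 8 rises and 8 falls per comparison with a group mean of at least 1 FPKM and no overlap, the 6 with the largest ratio of group means, and TRIM28 and SETDB1; other genes were named after their values were seen. Members and lists were chosen with earlier results of these data known. Alternatives were another pseudocount, other filters, other scalings, 2 groups alone, a replicate block, voom, removal of the trend, members that overlap no other gene, and leaving out libraries. Deviations of same-numbered libraries from their group means correlated at 0.49, 0.27 and 0.16 between control and PA+OA. On the first principal component, replicate 1 was the highest of its group in both, at -5.70 and 54.6. Between the other pairs of groups, such correlations ran from -0.28 (PA and PA+BMS, replicate 1) to 0.56 (PA+OA and PA+BMS, replicate 3). The labels do not say what a number marks, so pairing was not established.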

Additional observations from a re-analysis of the deposited data

How the results depend on the processing

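Counts are given as members that rose and fell, in the order PA against control (6 and 2), oleate added to PA (4 and 2), BMS added to PA (23 and 17), PA+OA against control (17 and 4) and PA+BMS against control (4 and 3). Without a filter on low values they were 2 and 0, 4 and 1, 17 and 11, 12 and 6, and 0 and 0. With the filter on the mean they were 5 and 2, 2 and 1, 18 and 18, 11 and 3, and 4 and 3. With library totals set equal they were 1 and 5, 3 and 2, 37 and 8, 9 and 6, and 6 and 5, and this scaling moved the median of all genes by -0.21, 0.035, 0.28, -0.18 and 0.081. With quantile normalization they were 6 and 1, 4 and 2, 14 and 19, 17 and 5, and 4 and 6, and with median-of-ratios scaling 4 and 2, 4 and 1, 27 and 15, 18 and 4, and 4 and 3. With only the 2 groups compared they were 12 and 6, 2 and 0, 20 and 17, 11 and 2, and 2 and 5. With voom on recovered reads they were 5 and 3, 5 and 2, 27 and 18, 18 and 4, and 7 and 3. With a pseudocount of 0.1 they were 6 and 2, 4 and 2, 23 and 18, 16 and 4, and 6 and 3. After removal of the GC and length trend they were 4 and 2, 7 and 4, 5 and 7, 20 and 11, and 8 and 4. Without the pair of libraries that stand apart (PA+OA 1 and PA+BMS 3) they were 14 and 9, 14 and 8, 18 and 16, 21 and 6, and 6 and 9. With both of these changes, an alternative chosen after seeing the data, they were 11 and 3, 9 and 5, 3 and 6, 23 and 12, and 9 and 9. The shares of all genes were then 16.4% and 16.9%, 10.6% and 12.4%, 12% and 14.2%, 18.7% and 21.5%, and 11.6% and 12.3%. Among members that overlap no other gene the counts were 1 and 1, 2 and 0, 9 and 4, 8 and 0, and 3 and 0, where fewer members were counted. Shares of all genes are given only as deposited, with the trend removed, without the pair, and with both changes. For other settings and fits without 1 library, a shift in counts is therefore not a result about the members. The cause of the other shifts was not tested.

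Leaving out 1 library gave 1 to 11 rises and 0 to 7 falls in PA against control, 2 to 8 and 0 to 5 with oleate added, 8 to 28 and 10 to 19 with the inhibitor added, 11 to 19 and 1 to 5 in PA+OA against control, and 0 to 12 and 0 to 11 in PA+BMS against control. With the replicate number as a block the counts were 9 and 5, 6 and 2, 28 and 17, 19 and 4, and 8 and 5. The block changed 1 call of a named gene, TRIM28 in PA+OA against control (adjusted p = 0.0421, limma). In the 4 other comparisons at least 1 pair of same-numbered libraries had deviations that correlated at 0.1 or less. The main test did not pair libraries by number in any comparison.

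The log2 change of ZNF562 in PA+BMS against PA turned to -0.023 with the trend removed and both libraries left out. TRIM28 in PA+BMS against control turned to 0.15 with quantile normalization, 0.074 with the trend removed and 0.039 with both changes. SETDB1, whose changes were near 0, turned to -0.17 in PA against control and -0.15 in PA+OA against control with library totals set equal. In PA+OA against PA it turned to 0.013 with median-of-ratios scaling, 0.023 with totals set equal, 0.059 with the trend removed, 0.0029 without both libraries, 0.049 with both changes, and to between 0.0029 and 0.023 when PA replicate 1, PA replicate 3 or PA+OA replicate 1 was left out, with a range of -0.076 to 0.023 over all 12. In PA+BMS against PA it turned to 0.018, 0.30, 0.022 and 0.048 with median-of-ratios scaling, totals set equal, the trend removed and both changes, and to 0.0060 without PA replicate 3, in a range of -0.093 to 0.0060. Members at a few reads, such as ZNF837 in control, are limited by depth.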
